A study of Homo sapiens with 15 samples.

Results

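The 9 genes described here are CD74, which encodes the invariant chain of MHC class II, together with CIITA, HLA-DRA, HLA-DRB1, HLA-DPA1, HLA-DPB1, HLA-DMA, HLA-DMB and CTSS. CD74 was chosen by its fall in both the PRMT5 and the WDR77 knockouts in these same libraries, and the other 8 genes were named with it as parts of the class II pathway. All 9 symbols were found among the 60649 gene rows of every library. A mean normalized count of at least 3 over the 15 libraries was required for testing, and 4 of the 9 genes reached it (CD74, CIITA, HLA-DMA and CTSS). The other 5 (HLA-DRA, HLA-DRB1, HLA-DPA1, HLA-DPB1 and HLA-DMB) had too few counts and are given as counts.

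The libraries came from HSC-5, a line of human skin squamous cell carcinoma, and measured RNA with 3 biological replicates in each of 5 conditions. Cells of the control, sgNeg, carry the genotype label WT. Cells given sgPRMT5-1 or sgPRMT5-2 are labelled PRMT5 Knockout (together PRMT5KO, 6 libraries), and cells given sgWDR77-1 or sgWDR77-2 are labelled WDR77 Knockout (together WDR77KO, 6 libraries). The treatment label of all 15 libraries is Neomycin, the control included. PRMT5 is an arginine methyltransferase and WDR77 its cofactor, and the study compared their depletion to find what the pair controls together. The genotype labels speak of knockout while the description of the series speaks of knockdown. Reads counted on genes ranged from 5146711 to 6730428 a library, and levels are given as CPM, counts scaled to a common library total with TMM factors.

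MHC class II molecules carry peptides from the endosomal path to the cell surface, where CD4 T cells read them. The coactivator CIITA switches on the genes of the whole pathway together, bound to a promoter complex of RFX, NF-Y and CREB proteins, and in cells other than professional antigen presenting cells it is usually silent until interferon gamma acts on it. The invariant chain fills the peptide groove of the new alpha and beta chains and guides them to endosomes, where cathepsins degrade it and HLA-DM exchanges its last fragment for a peptide.

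The targeted genes were checked first. PRMT5 stood at 59.1, 49.6 and 67.8 CPM in sgNeg replicates 1, 2 and 3. It stood at 33, 35.8 and 41.4 CPM with sgPRMT5-1 and at 44.2, 44.5 and 39.4 CPM with sgPRMT5-2, so all 6 PRMT5KO libraries were below all 3 sgNeg libraries. In limma voom the fall in PRMT5KO was a log2 fold change of -0.56 (SE 0.112, adjusted p = 0.00106). WDR77 stood at 125, 114 and 119 CPM in sgNeg, at 30.8, 52 and 53.3 CPM with sgWDR77-1 and at 26.6, 24.9 and 22 CPM with sgWDR77-2. The WDR77KO libraries did not overlap with sgNeg, at a log2 fold change of -1.86 (SE 0.129, limma voom adjusted p = 2.27e-09). The 2 sgRNAs of WDR77 also differed, with less WDR77 RNA under sgWDR77-2 (log2 fold change -0.85, SE 0.178, limma voom adjusted p = 0.0157), a call lost in 3 of 23 alternatives, with only the libraries compared (limma voom adjusted p = 0.177) and without sgWDR77-2 replicate 1 (0.0674) or 2 (0.062). RNA of both targets was left, which an RNA count cannot relate to protein, and other genes overlap 28.2% of the PRMT5 exon bases and 28.4% of those of WDR77. By Western blot, with HSC-5 among the lines, the paper reports that depleting either PRMT5 or WDR77 lowered the protein of both.

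Markers of other cells were looked at next, because professional antigen presenting cells, which are among the leukocytes, make class II constitutively. Of 14 leukocyte markers, 4 were at 0 in every library (FLT3, MS4A1, CD1A and CD3E), and 10 never passed 2 counts in any library. Among those 10, other genes overlap 85.6% of the CD68 exon bases and 34.7% of those of LYZ. Reads shared by genes were not counted, so the low counts of CD68 and LYZ are uncertain. PTPRC, the gene of the pan-leukocyte antigen CD45, had 1 count in all 15 libraries together. The summed level of the list was 4.35 to 8.38 CPM in sgNeg, 5.91 to 9.48 in PRMT5KO and 5.76 to 12.4 in WDR77KO, and the integrin gene ITGAX made up most of it. These ranges overlap. ITGAM, an integrin of myeloid cells, had 1 to 4 counts in sgNeg libraries and 4 to 13 in knockout libraries, and rose in WDR77KO (log2 fold change 1.88, limma voom adjusted p = 0.0447), with 1.60 in PRMT5KO (adjusted p = 0.0506). The ITGAM call was lost in 15 of 24 alternatives (limma voom adjusted p up to 0.192, without sgNeg replicate 2). CD79A, of B cells, had 5 counts over the 3 sgNeg libraries, 3 over the 6 PRMT5KO and 2 over the 6 WDR77KO libraries. The part of these marker values in the class II results was not tested.

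Of 10 keratinocyte markers, 9 passed the count filter, with KRT17 the most abundant, and their summed level overlapped between sgNeg (3650 to 4210 CPM), PRMT5KO (3240 to 4090 CPM) and WDR77KO (3290 to 4310 CPM). KRT14, a defining basal keratin, reached only 1 to 4 counts a library. Of the 9 tested, 3 fell in both knockouts (KRT5, KRT6A and DSG3), SFN rose in PRMT5KO and KRT17 rose in WDR77KO, all named after their values were seen. Over all genes, 10.8% fell and 12.0% rose in PRMT5KO, and 5.55% fell and 2.89% rose in WDR77KO. The basal keratin KRT5 went from 512, 638 and 817 CPM in sgNeg to 33.8 to 335 CPM in the 12 knockout libraries (log2 fold change -2.40 in PRMT5KO and -3.42 in WDR77KO, limma voom adjusted p = 3.06e-11 and 1.01e-13). The log2 fold changes in PRMT5KO and WDR77KO were -2.64 and -2.93 for KRT6A (limma voom adjusted p = 9.94e-07 and 1.22e-06) and -0.68 and -0.82 for DSG3 (9.87e-05 and 2.72e-05). Those of the genes that rose were 0.42 for SFN in PRMT5KO (limma voom adjusted p = 5.58e-04) and 0.41 for KRT17 in WDR77KO (0.00121). KRT17 stood at 1420 to 1450 CPM with sgWDR77-2 but at 754 to 871 CPM with sgWDR77-1, beside 760 to 890 CPM in sgNeg. Its rise was thus that of sgWDR77-2 (log2 fold change 0.83 alone, limma voom adjusted p = 2.64e-06), with -0.0017 for sgWDR77-1 alone (adjusted p = 0.994) and an adjusted p of 0.317 with only the libraries compared. Against WDR77KO, PRMT5KO was higher in KRT5 (log2 fold change 1.02, limma voom adjusted p = 3.45e-06) and SFN (0.25, 0.0053). It was lower in KRT17 (log2 fold change -0.44, limma voom adjusted p = 3.35e-05), and each of these calls was lost in 1 of 23 alternatives. The part of these keratinocyte values in the class II results was not tested. Fibroblast markers summed to 11.4 to 15.1 CPM in sgNeg, 6.68 to 13 in PRMT5KO and 9.05 to 16.2 in WDR77KO, mostly COL1A1, with COL1A2 at 0 in every library. Endothelial markers summed to 16.6 to 24.9 CPM in sgNeg, 12.7 to 21.4 in PRMT5KO and 19.3 to 36.1 in WDR77KO, mostly CDH5, with at most 3 counts of PECAM1. VWF, made by endothelium and platelets, fell from 2.47 to 3.56 CPM in sgNeg to 0.155 to 1.99 CPM in PRMT5KO (log2 fold change -1.90, limma voom adjusted p = 0.00233, but 0.0988 with sgPRMT5-1 alone). Both VWF (-1.41, limma voom adjusted p = 0.0107) and CDH5 (-0.56, 0.0021, but 0.0541 with only the libraries compared) were lower in PRMT5KO than in WDR77KO, CDH5 being highest with sgWDR77-1 (29.1 to 33.6 CPM). The part of these endothelial values in the class II results was not tested either. These bulk libraries cannot tell fewer cells with class II RNA from less of it per cell.

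Promoter bases are shown for CD74 and for HLA-DMA, because CIITA acts through sequence close to the start of the genes it serves. RefSeq promoter entries of build GRCh38.p14 matched 6 of the 9 genes, namely CD74, HLA-DRB1, HLA-DPA1, HLA-DPB1, HLA-DMA and HLA-DMB; CIITA, HLA-DRA and CTSS had none. Each line gives the 250 bases before the RefSeq start, 5' to 3' on the strand of the gene, at chr5:150412911-150413160 (minus strand) for CD74 and at chr6:32953098-32953347 (minus strand) for HLA-DMA. Capitals mark CCAAT, the box that NF-Y binds, or its reverse complement ATTGG.
CD74: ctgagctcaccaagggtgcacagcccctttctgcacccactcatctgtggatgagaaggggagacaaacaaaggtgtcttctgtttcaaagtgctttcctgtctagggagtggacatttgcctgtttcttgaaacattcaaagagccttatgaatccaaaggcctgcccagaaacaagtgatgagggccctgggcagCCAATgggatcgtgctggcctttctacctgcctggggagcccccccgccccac
HLA-DMA: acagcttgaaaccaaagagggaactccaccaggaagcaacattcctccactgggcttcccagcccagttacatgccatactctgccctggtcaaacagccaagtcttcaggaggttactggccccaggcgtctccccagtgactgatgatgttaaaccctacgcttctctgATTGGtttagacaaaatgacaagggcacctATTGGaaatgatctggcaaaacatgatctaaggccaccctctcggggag
The first base of the box lies 53 bases before the start in CD74, and the 2 boxes of HLA-DMA lie 79 and 49 bases before it, on the opposite strand. On either strand, CCAAT was found in 5 of the 6 promoters, against 32% of the 35116 promoters of the table. TGACG, the core of the CREB site, was found in 3 of the 6 and in 21.2% of all promoters. A match of letters is a description and not a bound site.

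CIITA, without which class II genes are hardly transcribed, was lower in every knockout library than in every sgNeg library. It had 16, 16 and 20 counts in sgNeg (2.71, 2.63 and 3.63 CPM). It had 1, 3 and 1 counts with sgPRMT5-1 (0.153, 0.509 and 0.171 CPM) and 8, 7 and 4 with sgPRMT5-2 (1.24, 1.19 and 0.677 CPM). With sgWDR77-1 it had 3, 7 and 5 counts (0.554, 1.3 and 0.912 CPM), and with sgWDR77-2 it had 5, 4 and 8 (0.963, 0.707 and 1.44 CPM). The sgPRMT5-1 libraries were thus the lowest of all, below every library of the other sgRNAs, while sgPRMT5-2, sgWDR77-1 and sgWDR77-2 overlapped one another.

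The log2 fold change of CIITA was -2.35 in PRMT5KO (SE 0.382, limma voom adjusted p = 1.47e-04, lower in 6 of 6 libraries) and -1.56 in WDR77KO (SE 0.337, adjusted p = 0.00446, lower in 6 of 6). Each sgRNA alone also passed the threshold of 0.05, at log2 fold changes of -3.22 with sgPRMT5-1, -1.47 with sgPRMT5-2, -1.65 with sgWDR77-1 and -1.48 with sgWDR77-2, and limma voom adjusted p of 0.00231, 0.00823, 0.0182 and 0.0418. Both pooled comparisons share the sgNeg libraries and were those that chose CD74. The difference of PRMT5KO from WDR77KO was -0.78 (95% interval -1.62 to 0.05, limma voom adjusted p = 0.157). Between the PRMT5 sgRNAs the difference was 1.75 (95% interval 0.45 to 3.05), which did not pass after adjustment (limma voom adjusted p = 0.0883, and 0.0584 to 0.303 over the alternatives) although the libraries did not overlap. Exons of other genes, with DEXI on the opposite strand among them, cover 21.6% of the CIITA exon bases, and the strand setting of the counting is not given in the sources used here.

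**Figure D1:**
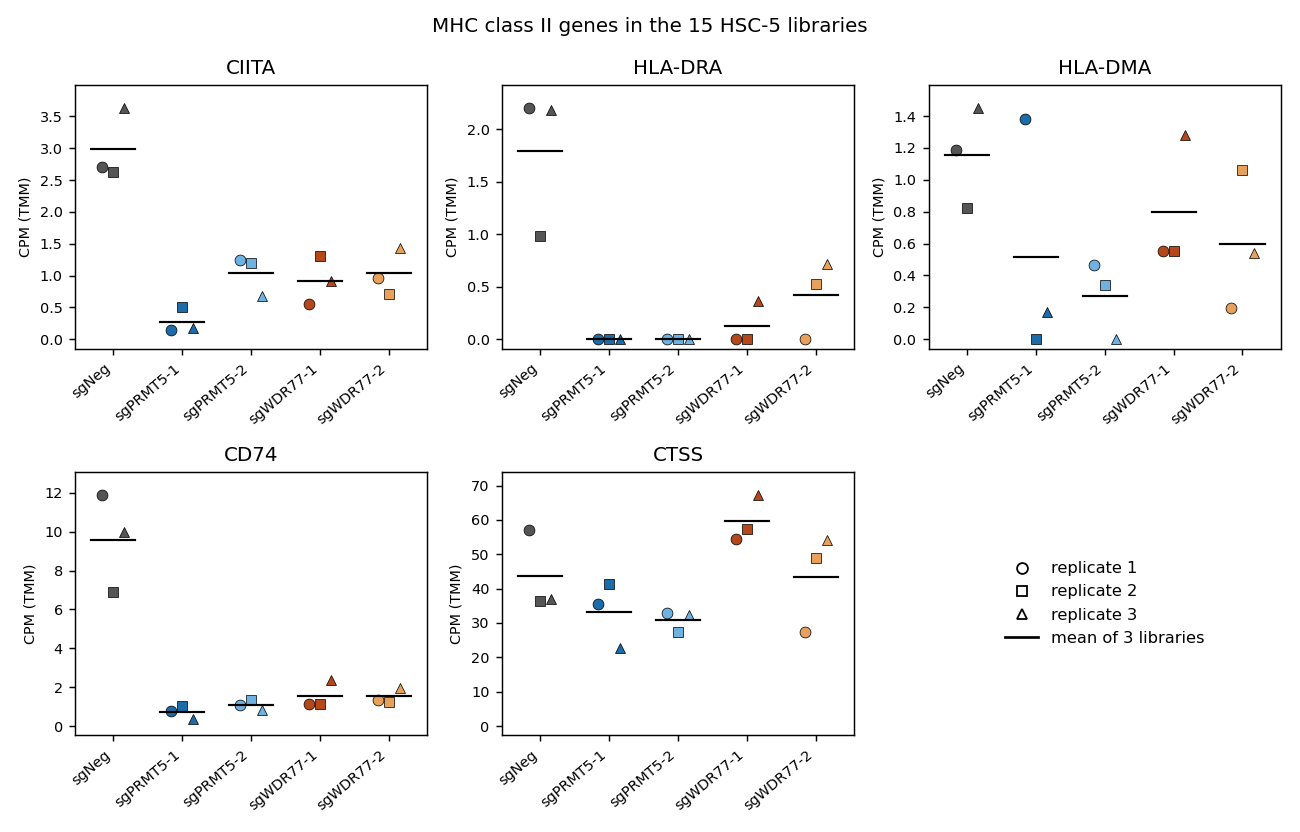
CPM of CIITA, HLA-DRA, HLA-DMA, CD74 and CTSS in each of the 15 libraries, by condition on the horizontal axis, each panel with its own vertical scale. CIITA and CD74 are highest in all 3 sgNeg libraries, HLA-DRA is at 0 in all 6 PRMT5KO libraries, and CTSS overlaps with sgNeg in every condition but sgPRMT5-2 (symbols are replicates and lines are means of 3 libraries).

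Across the genome, the background of calls was as follows. Of 14061 genes tested, 12.0% rose and 10.8% fell in PRMT5KO against sgNeg, and 2.89% rose and 5.55% fell in WDR77KO against sgNeg. Of the 3 members tested there (CIITA, HLA-DMA and CTSS), 2 fell in PRMT5KO and 1 in WDR77KO, a count from which nothing is read, since these comparisons chose CD74. In PRMT5KO against WDR77KO, where 15.7% of genes were higher and 11.4% lower, 1 of the 4 members tested was lower (CTSS). Between sgPRMT5-2 and sgPRMT5-1, 3.55% of genes were higher and 3.98% lower, and between sgWDR77-2 and sgWDR77-1 these shares were 1.84% and 0.569%. In each of these comparisons of 2 sgRNAs, limma voom called 0 of the 4 members, limma-trend called 0, and 1 of the 4 had an unadjusted p under 0.05. The balance of these shares depended on scaling. With library totals alone, 1072 genes rose and 2058 fell in PRMT5KO (1686 and 1514 with TMM). Between the knockouts, 1505 were then higher and 2163 lower (2205 and 1608 with TMM). Some of the counts behind these shares turned on 1 library. The 3200 genes called in PRMT5KO came to 1918 without sgNeg replicate 1 and 2058 without sgNeg replicate 2, and the 1187 in WDR77KO to 750 without sgNeg replicate 1 and 743 without sgNeg replicate 3. The 1059 between the PRMT5 sgRNAs ranged from 338 without sgPRMT5-1 replicate 1 to 1978 without sgWDR77-1 replicate 1, and the 339 between the WDR77 sgRNAs fell as low as 45 without sgWDR77-2 replicate 1.

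HLA-DRA encodes the nonpolymorphic alpha chain that all HLA-DR molecules share. It had 13, 6 and 12 counts in sgNeg (2.2, 0.986 and 2.18 CPM) and 0 in all 6 PRMT5KO libraries. It had 0, 0 and 2 counts with sgWDR77-1 and 0, 3 and 4 with sgWDR77-2 (0.53 and 0.72 CPM for the latter pair). Every sgNeg library was therefore above every knockout library, and 3 of the 6 WDR77KO libraries held any count. Against a floor of 3 counts over the 6 libraries, HLA-DRA was 21.5-fold lower in PRMT5KO than in sgNeg. By the exact 95% counting interval it was at least 16.5-fold lower. That interval also covers the counting error of sgNeg but not the spread between replicates. The 31 counts of sgNeg against the 9 of WDR77KO make a ratio of 6.44 after scaling (95% exact counting interval 2.99 to 15.4, counting error only). With a mean of 2.69 normalized counts it stayed below the filter and was not tested in the main fit. In the alternative with no filter it passed in PRMT5KO (limma voom adjusted p = 7.73e-07), in WDR77KO (0.00262) and between the knockouts (0.0261). It did not pass there between the PRMT5 sgRNAs (limma voom adjusted p = 0.999) or the WDR77 sgRNAs (0.559). Libraries that are all at 0, as in PRMT5KO, give no usable estimate of spread, so no weight is put on the p-values that involve PRMT5KO.

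The other peptide-binding chains were rarer. HLA-DRB1, a polymorphic beta chain of HLA-DR, had 4, 2 and 1 counts in sgNeg, 0 in the 6 PRMT5KO libraries and 0 or 1 in each WDR77KO library. Against 3 counts over the group that is 4.87-fold lower in PRMT5KO, and at least 3.01-fold lower by the exact counting interval. The ratio of sgNeg to the 4 counts of WDR77KO was 3.27 with a counting interval of 0.831 to 15.2. With no filter HLA-DRB1 also passed in PRMT5KO (limma voom adjusted p = 0.00131) and between the knockouts (0.0312), on these few counts, and not in WDR77KO (0.26). HLA-DPA1, the alpha chain of HLA-DP, had 2, 2 and 0 counts in sgNeg, 0 in all 6 PRMT5KO libraries and 2 in replicate 1 of each WDR77 sgRNA. It was 2.78-fold lower in PRMT5KO against the same floor and at least 1.38-fold lower by the exact counting interval. The ratio of sgNeg to WDR77KO was 1.87 (0.348 to 10). With no filter HLA-DPA1 did not pass in PRMT5KO (limma voom adjusted p = 0.138) or in WDR77KO (0.671). The intervals of HLA-DRB1 and HLA-DPA1 cover counting error only and leave out the spread between replicates. HLA-DPB1, the matching beta chain, had 1 count in all 15 libraries, in sgWDR77-2 replicate 1, and no fold is given.

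Of 10 further class II chain symbols, 8 had a row, and HLA-DRB5, HLA-DRB6, HLA-DQA1, HLA-DQA2, HLA-DQB1, HLA-DQB2 and HLA-DOA were at 0 in every library. HLA-DOB, a modulator of HLA-DM, had 0 to 2 counts. HLA-DR and HLA-DQ beta chain genes have close copies and many alleles, and reads that aligned to several places, 9.49% to 13.1% of a library, were not counted on any gene, so these low counts are uncertain. A further entry on the same strand overlaps 100% of the HLA-DRB6 exon bases, and another gene overlaps 30.4% of those of HLA-DOB. Reads shared by genes were not counted, so the 0 of HLA-DRB6 does not show that its RNA was absent.

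HLA-DM loads peptide onto the other class II molecules, and the counts of its 2 chains were unequal in these cells. HLA-DMA, the alpha chain, had 7, 5 and 8 counts in sgNeg (1.19, 0.822 and 1.45 CPM). It had 9, 0 and 1 counts with sgPRMT5-1 and 3, 2 and 0 with sgPRMT5-2 (1.38, 0, 0.171, 0.466, 0.34 and 0 CPM in that order). With sgWDR77-1 it had 3, 3 and 7 counts, and with sgWDR77-2 it had 1, 6 and 3. Replicate 1 of sgPRMT5-1 stood at the level of sgNeg, the other 5 PRMT5KO libraries were below all sgNeg libraries, and WDR77KO overlapped with sgNeg. HLA-DMB, the beta chain, had 1 count in all 15 libraries, in sgPRMT5-1 replicate 3. Another gene on the same strand overlaps 9.49% of the HLA-DMB exon bases, and reads shared by genes were not counted.

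In PRMT5KO the log2 fold change of HLA-DMA was -2.01 (SE 0.652, limma voom adjusted p = 0.0296, lower than every sgNeg library in 5 of 6). This call rests on few counts and was lost in 10 of 24 alternatives, among them limma-trend (adjusted p = 0.0636), no filter (0.0513), only the libraries compared (0.0534), and sgPRMT5-1 and sgPRMT5-2 each alone (0.236 and 0.0503 in limma voom). It was lost without sgNeg replicate 1 (limma voom adjusted p = 0.0778) or 3 (0.0852), without sgPRMT5-1 replicate 2 (0.0808) or 3 (0.0612), and without sgPRMT5-2 replicate 3 (0.0755). A side check in edgeR, outside these alternatives, did not call it either. The values of HLA-DMA were -0.76 in WDR77KO (95% interval -1.96 to 0.43, limma voom adjusted p = 0.479) and -1.25 in PRMT5KO against WDR77KO (-2.55 to 0.04, adjusted p = 0.143). The latter passed the threshold without sgPRMT5-1 replicate 1 (log2 fold change -1.85, limma voom adjusted p = 0.0296). HLA-DMA shares 8.53% of its exon bases with other genes, BRD2 on the opposite strand among them.

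CD74 (ENSG00000019582.16) had 70, 42 and 55 counts in sgNeg, which are 11.9, 6.9 and 9.98 CPM. It had 5, 6 and 2 counts with sgPRMT5-1 (0.764, 1.02 and 0.342 CPM) and 7, 8 and 5 with sgPRMT5-2 (1.09, 1.36 and 0.846 CPM). It had 6, 6 and 13 counts with sgWDR77-1 (1.11, 1.11 and 2.37 CPM) and 7, 7 and 11 with sgWDR77-2 (1.35, 1.24 and 1.98 CPM). All sgNeg libraries were far above all 12 knockout libraries, which is the fall that CD74 was chosen by, and every knockout library still held counts.

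In order of mean level, sgNeg stood at 9.58 ± 2.5 CPM (SD, n = 3), sgWDR77-1 at 1.53 ± 0.729, sgWDR77-2 at 1.52 ± 0.401, sgPRMT5-2 at 1.1 ± 0.257 and sgPRMT5-1 at 0.708 ± 0.341 CPM. Only the step from sgNeg to sgWDR77-1 separated neighbours in this order. The libraries of sgWDR77-1 and sgWDR77-2 overlapped, as did those of sgWDR77-2 and sgPRMT5-2 and those of sgPRMT5-2 and sgPRMT5-1. Farther apart in the order, sgPRMT5-1 lay below both WDR77 sgRNAs with no overlap. As a share of the sgNeg mean, the sgRNAs left 16%, 15.9%, 11.5% and 7.4% in that order. The log2 fold changes were -3.34 in PRMT5KO and -2.59 in WDR77KO, as a description with no test, since CD74 was chosen by them.

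The comparisons that chose nothing were tested. CD74 differed between PRMT5KO and WDR77KO by a log2 fold change of -0.75 (95% interval -1.54 to 0.04), which did not pass (limma voom adjusted p = 0.149, and 0.0814 to 0.322 over the alternatives). Between sgPRMT5-2 and sgPRMT5-1 the difference was 0.65 (95% interval -0.55 to 1.86, limma voom adjusted p = 0.527). Between sgWDR77-2 and sgWDR77-1 it was 0.05 (95% interval -0.96 to 1.06, limma voom adjusted p = 0.971), and its sign turned without sgWDR77-1 replicate 1 or 2 or without sgWDR77-2 replicate 3 (-0.14, -0.13 and -0.16). The knockout libraries held 2 to 13 counts each, and the size of difference that could be detected at this depth was not tested.

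Per kilobase of exon, CTSS was the most abundant of the 9 genes in sgNeg at 6.32 CPM per kilobase. CD74 followed at 2.12, HLA-DRA at 1.44, HLA-DMA at 0.457, CIITA at 0.133, HLA-DRB1 at 0.128 and HLA-DPA1 at 0.0387 CPM per kilobase, all as means of 3 sgNeg libraries. In PRMT5KO these levels were 4.64 for CTSS, 0.2 for CD74, 0.156 for HLA-DMA and 0.0291 CPM per kilobase for CIITA. In WDR77KO they were 7.49 for CTSS, 0.337 for CD74, 0.276 for HLA-DMA, 0.216 for HLA-DRA and 0.0434 CPM per kilobase for CIITA. The level of HLA-DMA in PRMT5KO rests on 1 library, and without sgPRMT5-1 replicate 1 it was 0.0776 CPM per kilobase, with CD74 at 0.206.

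By Pearson correlation of log2 CPM over the 15 libraries, the genes most like CD74 among the 14060 other genes tested were CNNM3 (r = 0.89), IGFBP2 (r = 0.889), BMP7 (r = 0.887), CIITA (r = 0.884) and KRT13 (r = 0.878). The 15 libraries share 1 control group that is high for each of these genes, so the values of r describe mainly that step, and with a smaller prior count of 0.5 IGFBP2 moved to rank 19. Within the 12 knockout libraries, r with CD74 was 0.732 for CIITA, 0.672 for KRT13, 0.559 for CNNM3, 0.545 for IGFBP2 and 0.0432 for BMP7. This r was taken only for the 5 genes already picked and was not ranked among other genes. The means of CD74 and CIITA were both lowest with sgPRMT5-1, so r there also holds differences between sgRNAs. Over all 15 libraries, HLA-DMA came at rank 706 (r = 0.574) and CTSS at rank 2770 (r = 0.339). KRT13, a keratin of internal stratified epithelia, had means of 43.9 CPM in sgNeg, 1.35 in PRMT5KO and 8.15 in WDR77KO. For BMP7, a secreted growth factor, the means were 24.8, 5.3 and 5.32 CPM, and for IGFBP2, which binds insulin-like growth factors, 3.78, 0.246 and 0.67 CPM. CNNM3 differed least, at 26.4, 19.1 and 20.6 CPM. These 4 genes were picked by likeness to CD74, itself chosen for its fall, so nothing is read from their lower levels in the knockouts. Most counts of IGFBP2 were in sgNeg, with 65 over its 3 libraries, 9 over the 6 of PRMT5KO and 22 over the 6 of WDR77KO.

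**Figure D2:**
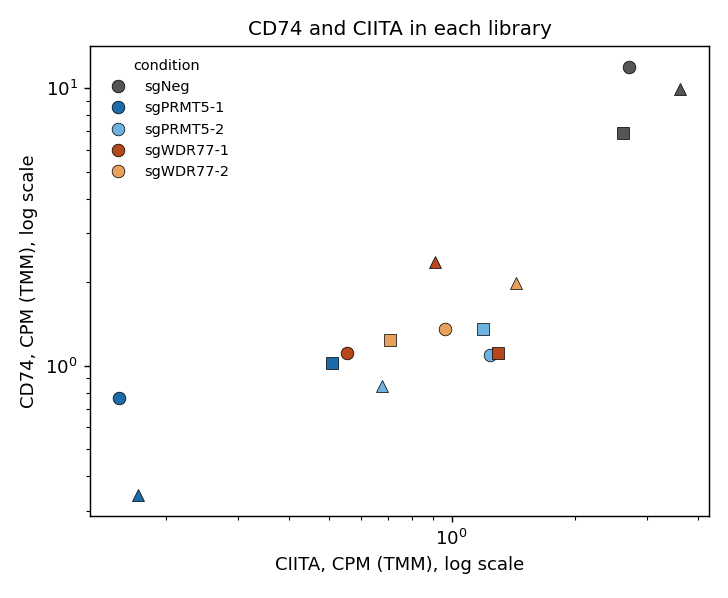
CD74 against CIITA in each of the 15 libraries, both as CPM on log axes, with colours for conditions and symbols for replicates (circle 1, square 2, triangle 3). The 3 sgNeg libraries stand apart at the upper right, at 6.9 CPM of CD74 or more, and sgPRMT5-1 has the lowest CIITA.

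CTSS, the cysteine protease cathepsin S that makes the last cuts in the invariant chain, was well counted. It stood at 57.1, 36.5 and 37 CPM in sgNeg (204 to 337 counts). It stood at 35.6, 41.2 and 22.6 CPM with sgPRMT5-1 and at 32.8, 27.4 and 32.3 CPM with sgPRMT5-2. With sgWDR77-1 it was at 54.5, 57.4 and 67.3 CPM, and with sgWDR77-2 at 27.5, 48.9 and 54 CPM. The sgPRMT5-2 libraries were below all sgNeg libraries, sgPRMT5-1 and both WDR77 sgRNAs overlapped with sgNeg, and replicate 1 of sgWDR77-2 was well below the other WDR77KO libraries. Neither knockout passed the threshold against sgNeg, at log2 fold changes of -0.43 in PRMT5KO (95% interval -0.83 to -0.04, limma voom adjusted p = 0.107) and 0.23 in WDR77KO (-0.15 to 0.62, adjusted p = 0.515). The first did pass without sgWDR77-2 replicate 1, a library outside this comparison (log2 fold change -0.46, limma voom adjusted p = 0.0408, and up to 0.479 over the alternatives). Set against each other, PRMT5KO was lower than WDR77KO by a log2 fold change of -0.67 (SE 0.156, limma voom adjusted p = 0.00336), which passed in all 23 alternatives.

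The genes around the members were described from lists of the pathway. Of the 7 genes of the promoter complex that carries CIITA, 1 rose (NFYC) and 1 fell (NFYB) in PRMT5KO, with a list median of 0.02 beside 0.01 for all genes, and 1 rose (NFYA) in WDR77KO, with a median of 0.07 beside 0.00 for all genes. The shares over all genes were 12.0% rising and 10.8% falling in PRMT5KO, and 2.89% rising in WDR77KO. The changes of these list genes were small, with log2 fold changes of 0.35 for NFYC (limma voom adjusted p = 0.035), -0.32 for NFYB (0.0328) and 0.30 for NFYA (0.0449), and the calls were lost in 13, 9 and 16 of 25 alternatives. The largest adjusted p in limma voom was 0.4 for NFYC and 0.152 for NFYB, both with sgPRMT5-1 alone, and 0.177 for NFYA without sgNeg replicate 3. Without sgNeg replicate 2 NFYC was at 0.266 and NFYB at 0.109 in adjusted p of limma voom. RFX5, a DNA-binding subunit of RFX, was at 66.9 to 73.8 CPM in sgNeg and was lower in PRMT5KO than in WDR77KO (log2 fold change -0.22, limma voom adjusted p = 0.02), as was RFXAP (-0.38, adjusted p = 0.0488), while NFYC was higher (0.28, adjusted p = 0.0314). The RFXAP call was lost in 15 of 23 alternatives (adjusted p up to 0.147 in limma voom without sgPRMT5-2 replicate 2), that of NFYC in 9 (0.107 without sgPRMT5-2 replicate 1) and that of RFX5 in 2 (0.0819 with only the libraries compared and 0.0714 without sgWDR77-2 replicate 2).

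Of 7 genes described of the interferon gamma path to CIITA, 1 fell in PRMT5KO (IRF1; median -0.0037 beside 0.01 for all genes), and 3 were lower in PRMT5KO than in WDR77KO (IRF1, IFNGR1 and JAK2; median -0.27 beside 0.02). Over all genes, 10.8% fell in PRMT5KO and 11.4% were lower in PRMT5KO than in WDR77KO. In WDR77KO limma voom and limma-trend each called 0 of the 7, with 3 at an unadjusted p under 0.05 and a median of 0.22 beside 0.00. IRF1, which acts on the interferon-inducible CIITA promoter, stood at 62, 56.2 and 65.7 CPM in sgNeg. It stood at 46.4 to 59 CPM with sgPRMT5-1 and 31.1 to 35.2 with sgPRMT5-2, and at 44.7 to 70.8 CPM in WDR77KO. Only sgPRMT5-2 lay clear of sgNeg. The log2 fold change was -0.55 in PRMT5KO (SE 0.11, limma voom adjusted p = 0.00107), -0.12 in WDR77KO (adjusted p = 0.585) and -0.43 between the knockouts (adjusted p = 0.00154, but 0.0542 with only the libraries compared). With sgPRMT5-1 alone IRF1 was at -0.24 (limma voom adjusted p = 0.315), and with sgPRMT5-2 alone at -0.86 (adjusted p = 5.28e-05). The receptor chain IFNGR1 and the kinase JAK2 were also lower in PRMT5KO than in WDR77KO, at -0.27 and -0.37 (limma voom adjusted p = 0.00839 and 0.0309), and the JAK2 call was lost in 7 of 23 alternatives (limma voom adjusted p up to 0.0881, without sgWDR77-2 replicate 3).

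**Figure D3:**
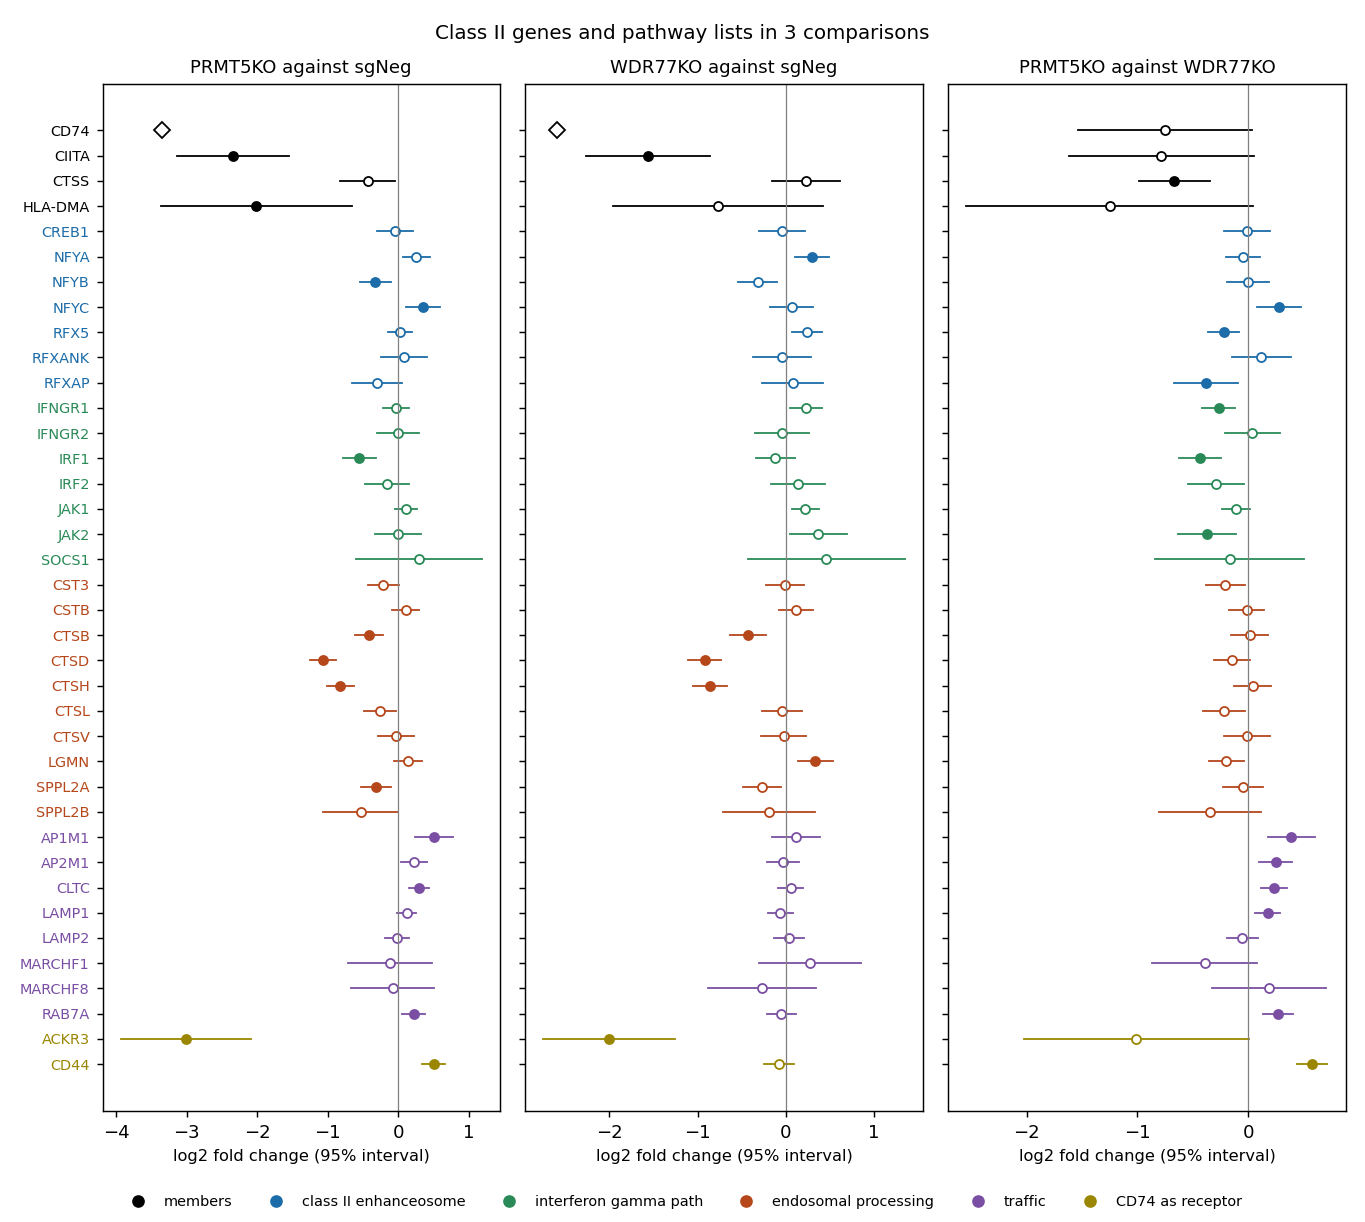
Log2 fold changes of the 4 members tested and of the tested genes of 5 pathway lists in PRMT5KO against sgNeg, WDR77KO against sgNeg and PRMT5KO against WDR77KO, from limma voom, with 95% intervals as lines, filled where an adjusted p of 0.05 was passed and an open diamond for CD74 where it was not tested. CTSD, CTSH, CTSB, CIITA and ACKR3 lie below 0 in both knockouts.

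Proteases of the endosome prepare both antigen and the invariant chain. Of 12 listed processing genes, 10 were tested, of which 4 fell in PRMT5KO (CTSD, CTSH, CTSB and SPPL2A, list median -0.28 beside 0.01 for all genes), and 3 fell (CTSD, CTSH and CTSB) and 1 rose (LGMN) in WDR77KO (median -0.11 beside 0.00). Over all genes, 10.8% fell in PRMT5KO, and 5.55% fell and 2.89% rose in WDR77KO. The aspartyl protease CTSD stood at 231, 191 and 206 CPM in sgNeg, 135, 127 and 111 with sgPRMT5-1, 77, 79.2 and 85.3 with sgPRMT5-2, 102, 111 and 126 with sgWDR77-1 and 99.4, 107 and 119 with sgWDR77-2. CTSH, an aminopeptidase, stood at 170, 139 and 156 CPM in sgNeg, 120, 97.8 and 106 with sgPRMT5-1, 79.4, 67.5 and 67.2 with sgPRMT5-2, 75.4, 87.9 and 81.7 with sgWDR77-1 and 78.9, 93.6 and 93.8 with sgWDR77-2. For both genes all 12 knockout libraries lay below all 3 sgNeg libraries.

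CTSD fell by a log2 fold change of -1.07 in PRMT5KO (SE 0.0901, limma voom adjusted p = 3.61e-08) and -0.92 in WDR77KO (SE 0.09, adjusted p = 3.63e-07), and CTSH by -0.82 (SE 0.0927, adjusted p = 1.94e-06) and -0.86 (SE 0.0934, adjusted p = 1.88e-06). CTSB fell by -0.41 and -0.43 (limma voom adjusted p = 0.00353 and 0.00608, the first 0.134 with sgPRMT5-1 alone, the second 0.0552 without sgNeg replicate 1 and 0.051 with only the libraries compared), with 77.7 to 106 CPM in sgNeg and 58 to 75.8 CPM over the knockout libraries. LGMN, the asparaginyl endopeptidase that opens the breakdown of the invariant chain, rose by 0.34 in WDR77KO (limma voom adjusted p = 0.0281, lost in 8 of 25 alternatives and 0.206 without sgNeg replicate 2), and the intramembrane protease SPPL2A fell by -0.31 in PRMT5KO (adjusted p = 0.0311, lost in 8 of 25, with a log2 fold change of -0.10 and adjusted p of 0.699 for sgPRMT5-1 alone and 0.121 without sgNeg replicate 2). Between PRMT5KO and WDR77KO, limma voom and limma-trend each called 0 of the 10, and 3 had an unadjusted p under 0.05. Other genes overlap 48% of the CTSD exon bases, some on the same strand, and CTSF and IFI30 had at most 2 counts a library. Another gene overlaps 42.5% of the IFI30 exon bases, so its low counts are uncertain.

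**Figure D4:**
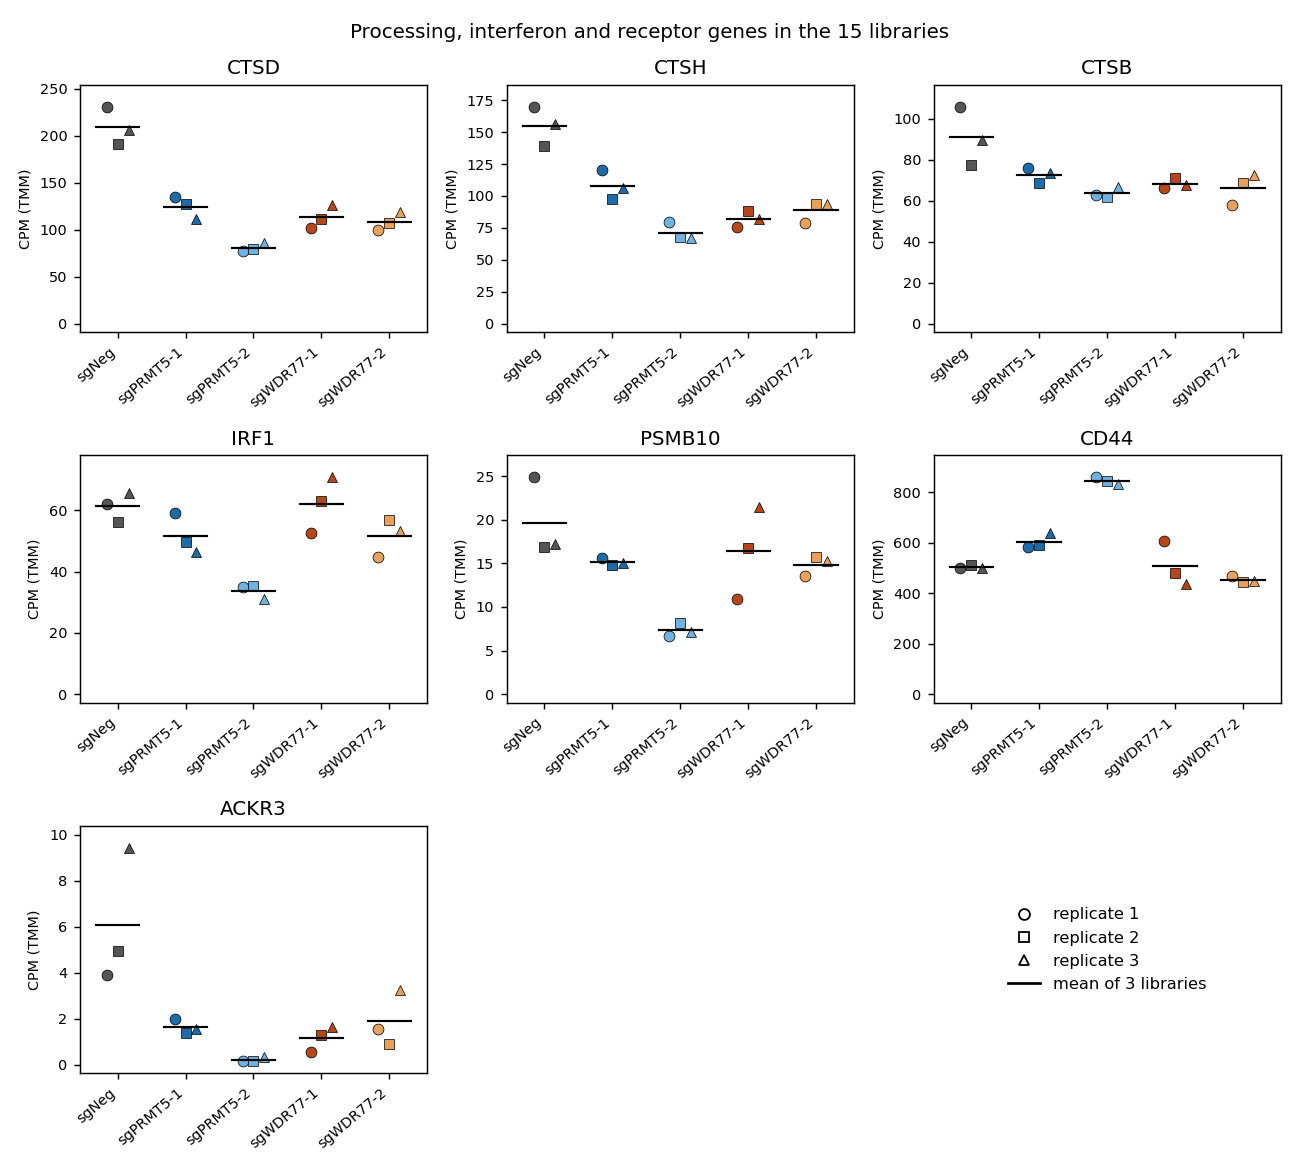
CPM of CTSD, CTSH, CTSB, IRF1, PSMB10, CD44 and ACKR3 in each of the 15 libraries, by condition, each panel with its own vertical scale; symbols are replicates and lines are means of 3 libraries. CTSD and CTSH are lower in all 12 knockout libraries than in sgNeg, and IRF1, PSMB10 and CD44 separate sgPRMT5-2 from sgPRMT5-1.

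Among 8 genes of class II and CD74 traffic, 3 rose in PRMT5KO, namely CLTC, the clathrin heavy chain (log2 fold change 0.30, limma voom adjusted p = 0.00398), AP1M1, an adaptor subunit (0.51, adjusted p = 0.00669), and RAB7A, a GTPase of late endosomes (0.22, adjusted p = 0.0463). The RAB7A call was lost in 17 of 25 alternatives (limma voom adjusted p up to 0.336, with sgPRMT5-1 alone, and 0.262 without sgNeg replicate 2). With sgPRMT5-1 alone the calls of AP1M1 (limma voom adjusted p = 0.0956) and CLTC (0.0901) were lost too, and that of AP1M1 also without sgNeg replicate 1 (0.0539). The share of all genes that rose in PRMT5KO was 12.0%. In WDR77KO limma voom and limma-trend each called 0 of the 8, with 0 at an unadjusted p under 0.05. Against WDR77KO, 5 of the 8 were higher in PRMT5KO, where 15.7% of all genes were higher (median 0.21 beside 0.02 for all genes). Among the 5 were CLTC, AP1M1, RAB7A and AP2M1, at log2 fold changes of 0.24 to 0.39. The calls of CLTC, AP1M1 and RAB7A passed in all 23 alternatives, and that of AP2M1 was lost in 3 of 23 alternatives (limma voom adjusted p = 0.0972 with only the libraries compared, 0.0561 with library totals alone and 0.0521 without sgPRMT5-2 replicate 1).

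At the cell surface CD74 also serves as a receptor of the cytokine MIF, with CD44 and chemokine receptors as partners. Of the 6 genes listed, CD44 and ACKR3 passed the filter, CXCR2 and CXCR4 had at most 5 and 6 counts a library, and MIF and DDT were listed at 0. Other genes overlap 94.1% of the MIF exon bases and 44.3% of those of DDT, and reads shared by genes were not counted, so these 0 values do not show that the RNA was absent. ACKR3, an atypical chemokine receptor, stood at 3.89, 4.93 and 9.43 CPM in sgNeg, 1.36 to 1.99 with sgPRMT5-1, 0.155 to 0.338 with sgPRMT5-2, 0.554 to 1.64 with sgWDR77-1 and 0.883 to 3.24 with sgWDR77-2. Every knockout library was below every sgNeg library. It fell by a log2 fold change of -3.01 in PRMT5KO (SE 0.447, limma voom adjusted p = 5.75e-05) and -2.0 in WDR77KO (SE 0.361, adjusted p = 9.19e-04). CD44, with 498 to 513 CPM in sgNeg, rose in PRMT5KO by 0.50 (SE 0.0815, limma voom adjusted p = 1.47e-04), and was -0.08 in WDR77KO (adjusted p = 0.635). The rise passed with sgPRMT5-2 alone (833 to 859 CPM, 0.74, limma voom adjusted p = 4.39e-06) and not with sgPRMT5-1 alone (581 to 636 CPM, 0.26, adjusted p = 0.152). Between the knockouts CD44 was higher in PRMT5KO by 0.58 (SE 0.0666, limma voom adjusted p = 2.07e-06), and ACKR3 was at -1.01 (95% interval -2.02 to 0.01, adjusted p = 0.132).

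Class I presentation was set beside class II. Of 14 genes described, 13 were tested, and 4 fell in PRMT5KO, namely the immunoproteasome subunits PSMB8, PSMB9 and PSMB10 and the nonclassical HLA-F, with a median of -0.165 over the list beside 0.01 for all genes. The share of all genes that fell in PRMT5KO was 10.8%. TAP2 was listed at 0, with 19.5% of its exon bases overlapped by another gene, and that 0 does not show that its RNA was absent. The log2 fold changes of the 4 were -0.57, -0.74, -0.88 and -0.78 (limma voom adjusted p = 4.52e-04, 3.68e-04, 0.00106 and 0.0332), and the HLA-F call was lost in 6 of 25 alternatives (up to 0.4, with sgPRMT5-1 alone, and 0.184 without sgNeg replicate 1). With sgPRMT5-1 alone the calls of PSMB8, PSMB9 and PSMB10 were lost too, at log2 fold changes of -0.24, -0.35 and -0.35 (limma voom adjusted p = 0.285, 0.229 and 0.344), against -0.89, -1.14 and -1.40 with sgPRMT5-2 alone. In WDR77KO 1 gene of the list rose, the tapasin gene TAPBP, by 0.33 (limma voom adjusted p = 0.0405), with a list median of 0.07 beside 0.00 for all genes, and this call was lost in 15 of 25 alternatives (up to 0.312, with sgWDR77-2 alone, and 0.272 without sgNeg replicate 3). The share of all genes that rose in WDR77KO was 2.89%. PRMT5KO was lower than WDR77KO in 7 of the 13, where 11.4% of all genes were lower (list median -0.23 beside 0.02 for all genes). By adjusted p the first 4 of these were TAPBP, PSMB8, HLA-F and PSMB9, at log2 fold changes of -0.48, -0.50, -0.82 and -0.42 (limma voom adjusted p = 1.64e-04, 2.47e-04, 0.00942 and 0.0101). The PSMB9 call was lost in 1 of 23 alternatives (limma voom adjusted p = 0.102 with only the libraries compared), and the other 3 passed in all 23.

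The sgRNAs of the same gene were also compared over the lists. In sgPRMT5-2 against sgPRMT5-1, 1 of 7 interferon path genes (IRF1), 4 of 10 processing genes (CTSD, CTSH, CTSV and SPPL2A) and 5 of 13 class I genes were lower, and CD44 was higher. Over all genes, 3.98% were lower and 3.55% higher in this comparison. The list medians were -0.20, -0.21 and -0.30 for the first 3 lists, beside -0.01 for all genes. ACKR3 had the largest difference, a log2 fold change of -2.54 (95% interval -4.17 to -0.91), which did not pass in limma voom (adjusted p = 0.0504) while limma-trend called both CD44 and ACKR3. For the promoter complex limma voom and limma-trend each called 0 of 7, with 0 at an unadjusted p under 0.05, and for traffic 0 of 8, with 1 at an unadjusted p under 0.05. The log2 fold changes were -0.61 for IRF1 (SE 0.134, limma voom adjusted p = 0.00688), -0.62 for CTSD (SE 0.11, adjusted p = 0.0011) and -0.59 for CTSH (SE 0.112, adjusted p = 0.00206). The IRF1 call was lost without sgPRMT5-1 replicate 1 (limma voom adjusted p = 0.0648). The SPPL2A call was lost in 10 of 23 alternatives (limma voom adjusted p up to 0.198, without the same library) and that of CTSV in 2 (0.0734 without that library and 0.0941 without sgPRMT5-2 replicate 1). PSMB10 was lost without sgPRMT5-2 replicate 1 (limma voom adjusted p = 0.0559). CIITA had a difference of 1.75, of opposite sign, that did not pass the threshold. In sgWDR77-2 against sgWDR77-1 the calls on these lists came to 1, a rise of the clathrin adaptor gene AP2M1 (0.39, limma voom adjusted p = 0.0467, lost in 19 of 23 alternatives, with 0.288 for only the libraries compared and 0.273 without sgWDR77-2 replicate 1). Over all genes, 1.84% were higher and 0.569% lower in that comparison.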

How the data were processed

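RNA-seq libraries of HSC-5 cells were used, 3 for each of 5 conditions. The values are raw gene counts (whole reads per gene) deposited by the authors, whose methods give STAR alignment and HTSeq counting; strand setting and annotation release were not found in the sources used here. Genes with a mean normalized count of at least 3 (14061 genes) entered 1 limma voom fit of all 15 libraries after TMM scaling (R 4.3.3 with limma 3.58.1), made of 5 group means and 5 contrasts. A knockout is the mean of its 2 sgRNAs. P-values were adjusted by the Benjamini-Hochberg method over all genes tested, with a threshold of 0.05. Each sgRNA group has 3 libraries, and pairs of replicates differed by 1.55 to 17.7 chi-square per degree of freedom, more than counting noise alone. The highest values, 12.5 and 17.7, were those of sgWDR77-1 replicate 1 against replicates 2 and 3. Reads on no feature made up 7.16% of sgNeg replicate 2 and 6.04% and 5.7% of sgWDR77-1 replicates 2 and 3. In the other libraries this share was 2.75% to 4.26%, and its part in the results was not tested. Libraries held 5146711 to 6730428 counted reads, at which genes of few counts have wide intervals.

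Likeness to CD74 is Pearson r of log2 CPM with a prior count of 2. Ratios of genes under the filter use exact binomial intervals of the summed counts. Lengths and exon overlaps come from GENCODE v44. The genes named are the members, the targets, the 5 genes most like CD74, marker genes with most counts, at or near 0, or past the threshold, up to 4 genes of each pathway list and comparison past the threshold (with their values in other comparisons), and list genes with few or no counts. The members and lists were chosen with earlier results of these data known, and 2 genes of the lists are not used here. Alternatives were RLE or upper-quartile factors, no filter, a mean count of at least 10, a replicate block, only the libraries compared, limma-trend, each sgRNA alone, leaving out each library and, chosen after seeing the data, library totals alone. DESeq2 was not run. edgeR was not used for any value given here; run once as a side check after the limma voom results were known, it did not call HLA-DMA in PRMT5KO. The code was tested on simulated data, with changes put only in genes of higher mean counts than CD74, CIITA and HLA-DMA. That test therefore does not bear on the calls of these members.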

Additional observations from a re-analysis of the deposited data

Results flagged for a closer look

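Of the class II genes, 3 had 1 library far from the other 5 of its knockout. HLA-DMA stood at 1.38 CPM in sgPRMT5-1 replicate 1, above the other PRMT5KO libraries, HLA-DMB at 0.171 CPM in sgPRMT5-1 replicate 3, and HLA-DPB1 at 0.193 CPM in sgWDR77-2 replicate 1. The HLA-DMB and HLA-DPB1 values are each a single count beside 5 libraries at 0. The rule was applied in 17 groups of 6 libraries, and it always marks a single count beside 5 libraries at 0.

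Other results differed between sgRNAs of the same gene in limma voom. In sgPRMT5-2 against sgPRMT5-1 the log2 fold changes were -0.611 for IRF1, -0.621 for CTSD, -0.595 for CTSH, -0.416 for SPPL2A and -0.575 for CTSV. Those of class I presentation genes were -0.79 for PSMB9, -0.648 for PSMB8, -1.05 for PSMB10, -0.447 for TAPBP and -0.477 for ERAP2, and CD44 had 0.488. Among keratinocyte markers they were -2.26 for KRT5 and -2.02 for KRT6A. In sgWDR77-2 against sgWDR77-1 they were -0.852 for WDR77 and 0.389 for AP2M1, and among markers 1.19 for KRT5, 0.833 for KRT17, 0.34 for SFN and -0.845 for CDH5. Of these marker calls, SFN was lost in 18 of 23 alternatives (limma voom adjusted p up to 0.292, with only the libraries compared), and KRT6A without sgPRMT5-1 replicate 1 (0.0747) or sgPRMT5-2 replicate 1 (0.0994). Between the WDR77 sgRNAs KRT5 was lost with no filter (limma voom adjusted p = 0.0641) and CDH5 with only the libraries compared (0.0617). The causes were not tested.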

How the results depend on the processing

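Over 2376 alternative log2 fold changes, 2128 kept their direction and side of the threshold, 230 were no longer past it, 2 newly passed and 16 reversed. CIITA stayed past the threshold in both knockouts in every alternative that tested it. The planned edgeR and DESeq2 alternatives are not among these. The unit check could not read the count columns as counts, and edgeR was run only in the side check described under the processing.

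Signs turned in small differences. With 1 sgRNA alone, KRT17 in WDR77KO was -0.001691 (sgWDR77-1), CTSS in WDR77KO -0.02039 (sgWDR77-2) and PRMT5 in WDR77KO -0.01835 (sgWDR77-1); without 1 library the latter ranged from -0.009283 (sgNeg replicate 2) to 0.1876. Leaving out 1 library, the difference of sgPRMT5-2 from sgPRMT5-1 ranged from -1.234 to 0.8613 for HLA-DMA (0.5941 without sgPRMT5-2 replicate 3), -0.2974 to 0.1082 for CTSS (0.002726 and 0.01873 also above 0) and -0.2002 to 2.697e-04 for WDR77. That of sgWDR77-2 from sgWDR77-1 ranged from -0.1592 to 0.4009 for CD74 (-0.1361 and -0.1306 also below 0), -0.1296 to 0.4203 for CIITA (also -0.09315) and -0.9666 to 0.02788 for HLA-DMA. The causes were not tested.

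Genes called in PRMT5KO (3200) came to 404 with sgPRMT5-1 alone, 4361 with sgPRMT5-2 alone and 1918 to 4157 without 1 library. In WDR77KO (1187) they came to 477 with only the libraries compared, 1333 with sgWDR77-1 alone, 674 with sgWDR77-2 alone and 743 to 1575 without 1 library. Between the knockouts (3813) the counts were 1962 with only the libraries compared and 2872 to 4349 without 1 library. Between the PRMT5 sgRNAs (1059) they were 2690 and 338 to 1978, and between the WDR77 sgRNAs (339) 17 and 45 to 505, with 219 under library totals alone.

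Scaling moved the balance of calls. Upper-quartile factors gave 517 higher and 633 lower in WDR77KO (407 and 780 with TMM) and 624 and 431 between the PRMT5 sgRNAs (499 and 560). In PRMT5KO (1686 and 1514 with TMM) the counts were 2102 and 1263 with upper-quartile factors, 1455 and 1697 with RLE factors and 1072 and 2058 with library totals alone. Library totals alone also gave 1505 and 2163 between the knockouts (2205 and 1608) and 131 and 88 between the WDR77 sgRNAs (259 and 80).

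Replicate numbers did not pair the libraries: over 30 same-number pairs, r ran from -0.332 to 0.272, and 5 of 15 libraries correlated best with their own number. With the replicate block, 3029, 1062, 3711, 1002 and 237 genes were called in the 5 comparisons, and NFYA and TAPBP in WDR77KO, RFXAP between the knockouts, SPPL2A between the PRMT5 sgRNAs and AP2M1 and SFN between the WDR77 sgRNAs were at adjusted p of 0.0516, 0.053, 0.0574, 0.05, 0.0654 and 0.0643.

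Depth limits HLA-DRA, HLA-DRB1, HLA-DPA1, HLA-DPB1 and HLA-DMB most, as 1 to 3 counts change their ratios. A stricter filter of 10 left CIITA and HLA-DMA without a value.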
